A study of Homo sapiens with 17 samples.

Results

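Knockdown of JMJD6 was compared with a non-targeting control in heat-shocked PC3M cells, an established metastatic line of human prostate cancer. The comparison covers 6 of the 17 libraries of the series and the 9541 genes, of 13616 in the heat shock table, that reached 10 normalized counts in at least 3 of those 6 libraries. All 6 came from cells given 1 hour at 42 °C and 2 hours of recovery after 72 hours of siRNA transfection. In 3 of them the siRNA was non-targeting (siNT) and in 3 it was directed against JMJD6 (siJMJD6). A further 3 libraries of the same table, from siNT cells without stress (basal), are given for level. A separate table, normalized on its own, holds siNT and siJMJD6 cells under 2.5 µM of the proteasome inhibitor MG132 for 4 hours, with 2 libraries each. How many siRNA sequences were used is not given in the labels. Effects of JMJD6 loss and other effects of the siRNA cannot be told apart here. Unstressed siJMJD6 cells were not analysed here, so an effect of the knockdown after heat shock and one present before it cannot be told apart.

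Heat shock unfolds proteins, and the transcription factor HSF1 answers by switching on genes of chaperones, which refold or hold other proteins. HSP90, HSP70 and their HSP40 partners do this in the cytosol, HSPA5 and its partners in the endoplasmic reticulum (ER). A second branch, the integrated stress response, slows translation and raises the transcription factor ATF4, whose targets make and import amino acids. JMJD6 is an oxygenase of the Jumonji C (JmjC) family that binds splicing factors, and the title of the series places it in a feedback circuit with HSF1 and the heat shock proteins.

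Transcripts were sequenced as tags from their 3' ends, and the deposited values are normalized counts that the authors scaled between libraries. The 6 libraries sum to 1651370 to 1726645 normalized counts. Steps between low values place the reads behind them at about 1.53 M to 1.73 M in siJMJD6 and 1.77 M to 2.61 M in siNT cells, an uncertain estimate. The ribosomal protein gene RPS24 took 3.26% to 3.36% of each siJMJD6 library and 2.43% to 2.57% of each siNT library. Both values move with the groups, and their part in the results was not tested. Replicates correlated across genes at r = 0.971 to 0.977 within the 2 groups and at 0.89 to 0.898 between them. The first principal component of the table, with 60.7% of the variance, set the siJMJD6 libraries apart from both siNT groups. The labels leave unsaid whether replicates came from different cultures, and the p-values below then reflect only how far the libraries of a group scatter, possibly for technical reasons.

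The knockdown was followed by changes across much of the transcriptome, in both directions. Changes are log2 differences of the normalized count plus 1, siJMJD6 minus siNT, ± standard error (SE), and a gene is called where limma's Benjamini-Hochberg adjusted p was under 0.05. By that rule 4499 of 9541 genes were called, or 47.2%, of which 2102 (22.0%) were higher and 2397 (25.1%) lower. Counts of called members in the gene lists below are to be read against these shares of all genes, 25.1% lower and 22.0% higher. At least 2-fold changes were seen in 743 of the higher and 818 of the lower genes, and at least 4-fold changes in 104 and 77. The 2-fold counts were 373 and 426 with a pseudocount of 10 in place of 1, and 292 and 426 with a minimum of 50 normalized counts. The 3 values of one group lay wholly above or below those of the other in 5222 genes, or 54.7%. Over all tested genes the median change was −0.025, with 5% of genes below −1.24 and 5% above 1.24, and the median SE was 0.19. In bulk RNA a lower level can come from fewer cells expressing a gene or from less RNA per cell, and these cannot be told apart.

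Called genes were found at every level of expression. Genes were split by mean level into 3 classes of like size. In the lowest class 18.1% rose and 18% fell, in the middle class 19.8% and 26.6%, and in the highest class 28.2% and 30.8%. For comparison, heat shock alone changed 401 genes in siNT cells, 4.20% of the same 9541.

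**Figure D1:**
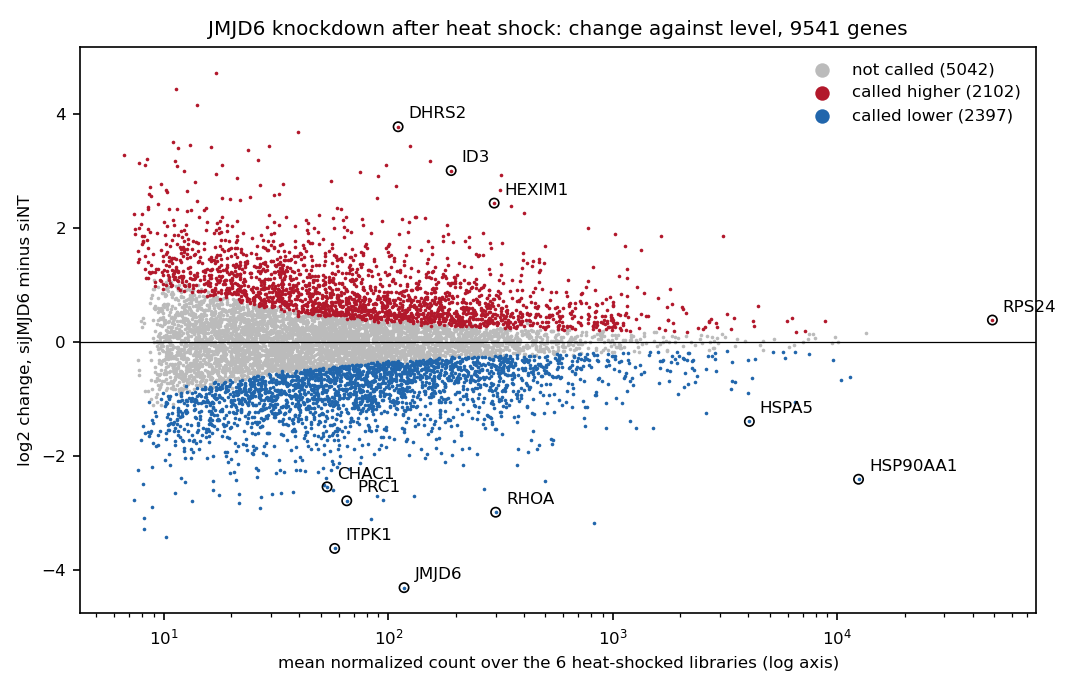
Change after JMJD6 knockdown (log2, siJMJD6 minus siNT, vertical axis) against the mean normalized count over the 6 heat-shocked libraries (log axis) for 9541 genes. Red points are the 2102 genes called higher, blue points the 2397 called lower and grey points the rest; JMJD6 is the lowest point among the circled genes and HSP90AA1 the most abundant gene with a fall of more than 2 on the log2 scale.

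JMJD6 was low in the libraries labelled as its knockdown. The gene (protein coding; GRCh38 chromosome 17, from 76712836 to 76726606) had 209, 210.2 and 253 normalized counts in the siNT libraries and 9.72, 7.66 and 14.6 in the siJMJD6 libraries. All 3 siJMJD6 values lay far under every siNT value and also under the basal values of 102, 105 and 104. The log2 change was −4.31 ± 0.19 (adjusted p = 9.32e-20), the deepest fall of the comparison among genes with a mean of at least 50. METTL23, a methyltransferase gene whose annotated span (76726041 to 76733881) overlaps that of JMJD6, had 63.7, 64.5 and 56.6 normalized counts in siNT and 80.2, 69.1 and 77.5 in siJMJD6 cells and was not called (0.29 ± 0.16, adjusted p = 0.14). SRSF2, the splicing factor gene beside them, was lower (−0.35 ± 0.11, adjusted p = 0.00884). Without siNT heat shock library 3 its adjusted p was 0.0544.

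HSF1 itself rose slightly. Its levels were 1261, 1145 and 1190.3 in siNT and 1471, 1427 and 1364 in siJMJD6 cells, so every siJMJD6 library lay above every siNT library, by a small 0.25 ± 0.073 (adjusted p = 0.00559). Of the 11 tested members of the HSF family and regulators of HSF1, 5 rose (45.5%) and 4 fell (36.4%), with a list median of 0.24. HSBP1, a small protein that binds HSF1 trimers, fell most, from 611, 615 and 599 to 135, 145 and 129 (−2.15 ± 0.096, adjusted p = 2.76e-19). VCP, the segregase that draws proteins out of complexes, fell by a smaller amount (−0.50 ± 0.10, adjusted p = 0.000118). Among those that rose were FBXW7, a ubiquitin ligase subunit that marks HSF1 for degradation (0.80 ± 0.12, adjusted p = 1.13e-06), the histone chaperone DAXX (0.71 ± 0.14, adjusted p = 6.68e-05) and the deacetylase SIRT1 (0.78 ± 0.22, adjusted p = 0.00328).

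Many cytosolic chaperones were lower, HSP90AA1 most of all. HSP90AA1 (chromosome 14, 102080742 to 102139749), the inducible HSP90, had 22185, 20544 and 19998 normalized counts in siNT cells after heat shock and 4159.7, 3725 and 3932 in siJMJD6 cells, against 14041, 15283 and 12336 at baseline. The siJMJD6 libraries were thus below the basal ones as well as below the heat-shocked ones, with a change of −2.41 ± 0.069 (adjusted p = 6.16e-25). Its constitutive partner HSP90AB1 fell less, from 13483, 14188 and 13629.8 to 9319.6, 8713 and 8804 (−0.62 ± 0.064, adjusted p = 6.87e-10). Of 19 tested genes of HSP90 and its co-chaperones, 9 fell (47.4%) and 4 rose (21.1%), against 25.1% and 22.0% of all tested genes. The list's median change was −0.47. STIP1, which joins HSP70 to HSP90 (−0.92 ± 0.085), PTGES3, the p23 co-chaperone (−0.70 ± 0.067), AHSA1, which speeds the HSP90 ATPase (−0.47 ± 0.071), FKBP4 (−0.51 ± 0.10) and CACYBP (−0.52 ± 0.11) were among those that fell. CDC37, which brings kinases to HSP90, rose from 1624, 1684 and 1614 to 2024, 2093 and 2102 (0.34 ± 0.070, adjusted p = 0.000153), as did TOMM34 (0.44 ± 0.095) and SGTA (0.36 ± 0.10).

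The HSP70 group moved less, and not as a block. BAG3, the HSP70 co-chaperone of selective autophagy, had 965, 1078 and 1216 normalized counts in siNT and 509, 600.2 and 599.9 in siJMJD6 cells, against 267, 278 and 247 at baseline. Both heat-shocked groups were above the basal one, with the siJMJD6 values between the others (−0.93 ± 0.093, adjusted p = 3.55e-10). DNAJB1, the heat-induced HSP40, went from 2653, 3089 and 3356 to 2157, 2111 and 2239 (−0.48 ± 0.078, adjusted p = 4.9e-06) and HSPH1, the HSP110 exchange factor, from 1353, 1361 and 1272 to 1026, 999.7 and 1039 (−0.38 ± 0.075, adjusted p = 9.11e-05). The inducible HSP70 pair split. HSPA1B fell from 1441, 1572 and 1369 to 839.9, 979 and 917 (−0.68 ± 0.082, adjusted p = 2.01e-08), while HSPA1A had 1408, 1662 and 1689.9 in siNT and 1595, 1981 and 1920.3 in siJMJD6 cells, groups that overlapped (0.21 ± 0.084, adjusted p = 0.0411). The call of HSPA1A was lost without siNT heat shock library 1 (0.12, adjusted p = 0.262), without siJMJD6 library 2 (0.15, adjusted p = 0.219) or 3 (0.17, adjusted p = 0.171), without siNT basal library 1 (0.21, adjusted p = 0.0532) and with all genes of the table tested (0.21, adjusted p = 0.0561). These 2 genes are near-identical copies, so how reads were divided between them is uncertain.

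HSPA8, the constitutive HSP70, was not called, with 270.4, 299 and 392 in siNT and 329.6, 363 and 365 in siJMJD6 cells (0.15 ± 0.11, adjusted p = 0.269). Its siNT library 3 lay highest of all 6, and without it the gene was called higher (0.31, adjusted p = 0.0218). The small heat shock protein HSPB1 was slightly lower (−0.24 ± 0.077, adjusted p = 0.0097), a call that quantile normalization ended (−0.17, adjusted p = 0.0808). Of 31 tested HSP70 and HSP40 genes of the cytosol, 13 fell (41.9%) and 2 rose (6.45%), against 25.1% and 22.0% of all tested genes. The median change was −0.23. The other falls included DNAJB6, which holds aggregating proteins, from 434, 448 and 504 to 230.4, 274 and 257 (−0.86 ± 0.098, adjusted p = 5.13e-09), DNAJB4 (−1.63 ± 0.30) and the HSP110 relative HSPA4 (−0.51 ± 0.11). DNAJA2, ST13 and HSPB8 had changes of −0.020 ± 0.15, −0.057 ± 0.092 and 0.006 ± 0.14 and were not called. Summed over the list, the level was 14030 to 15340 normalized counts in siNT and 11620 to 12320 in siJMJD6 libraries, while the HSP90 list summed to between 43000 and 45430 in siNT and between 20290 and 21490 in siJMJD6 libraries.

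**Figure D2:**
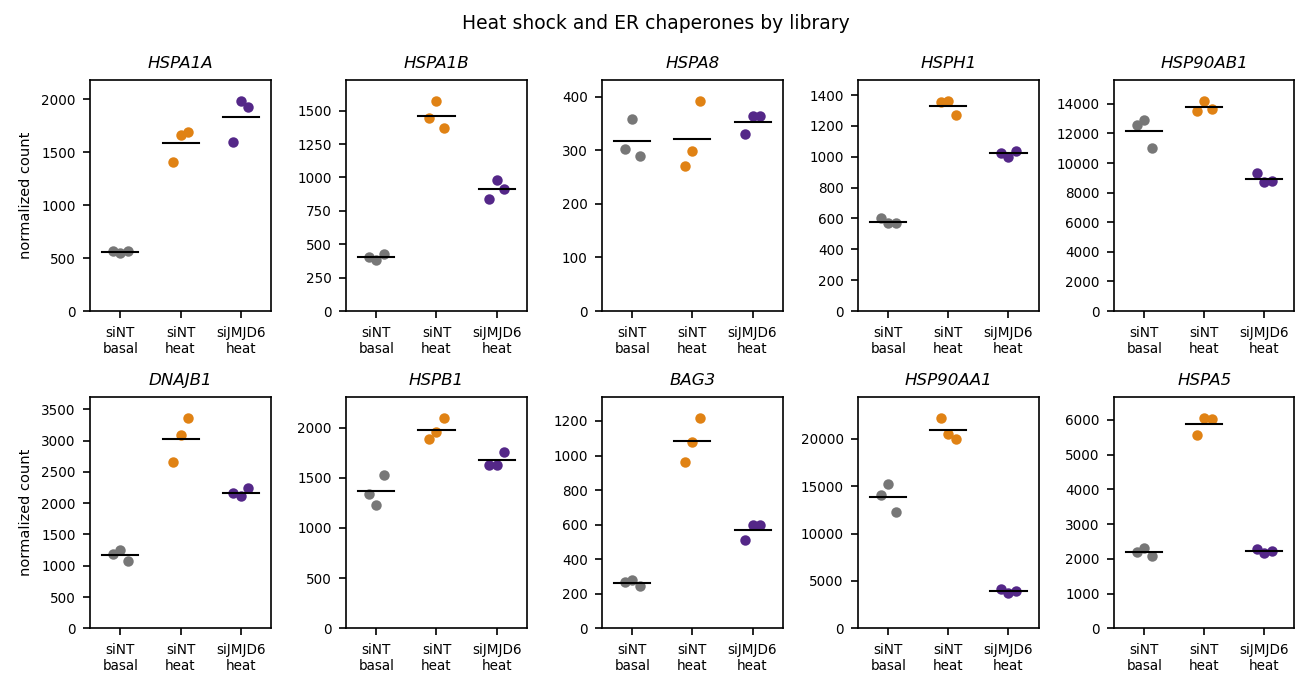
Normalized counts of 10 chaperone genes in each library (points; lines are group means) for siNT basal, siNT heat shock and siJMJD6 heat shock cells, each panel with its own axis from 0. HSP90AA1 in siJMJD6 cells lies under the basal level, HSPA5 lies at it, and BAG3, DNAJB1, HSPH1 and HSPA1B lie between the basal and the heat-shocked siNT values.

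The binding site of HSF1, the heat shock element, was searched as 3 alternating units of GAA and TTC, each 2 bases from the next, on both strands of RefSeq's promoter windows (GRCh38.p14, 250 bases before to 50 after a gene's start). A gene could have several windows, 1.47 on average, and here and below it was counted if any of them held the motif. Of the 7874 tested genes with such a window, 37 or 0.47% held a heat shock element. They were 15 of 2007 genes called lower (0.747%), 1 of 1700 called higher (0.0588%) and 21 of 4167 not called (0.504%), shares given as a description. Among the chaperones 3 of 27 HSP70 and HSP40 genes and 3 of 13 HSP90 genes held it. They were DNAJB6, DNAJA1, HSPA8, HSP90AA1, HSP90AB1 and CHORDC1, of which HSPA8 and CHORDC1 (0.14 ± 0.16) were not called. Of those without it, 10 of 24 HSP70 and HSP40 genes and 5 of 10 HSP90 genes fell. This exact pattern was not found for BAG3, DNAJB1, HSPH1, HSPB1, HSPA1A or HSPA1B. Imperfect elements and those outside the windows were not searched, so a gene without a match may still have an HSF1 site. The window of HSP90AA1, the most abundant of the genes that fell by more than 2 on the log2 scale, lies on the minus strand at chr14:102086995-102087294, with the element in capitals.
HSP90AA1: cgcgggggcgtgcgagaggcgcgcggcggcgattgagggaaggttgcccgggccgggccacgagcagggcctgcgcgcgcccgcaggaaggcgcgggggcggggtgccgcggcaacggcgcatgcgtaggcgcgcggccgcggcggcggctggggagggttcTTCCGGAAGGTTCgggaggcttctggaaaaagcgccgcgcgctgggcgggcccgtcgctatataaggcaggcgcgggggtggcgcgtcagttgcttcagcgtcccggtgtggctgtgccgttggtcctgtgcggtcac

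Members of the chaperonin and mitochondrial chaperone lists fell as well. VBP1, a subunit of prefoldin, which hands unfolded actin and tubulin to the chaperonin TRiC, dropped from 159.6, 159 and 179.9 normalized counts to 19.2, 23.6 and 28.4 (−2.77 ± 0.16, adjusted p = 2.55e-16). Of 14 TRiC and prefoldin subunits 8 fell (57.1%) and 2 rose (14.3%), against 25.1% and 22.0% of all tested genes (median −0.27). PFDN2 and CCT3 fell (−0.66 ± 0.088 and −0.47 ± 0.084), and PFDN5, from 1778, 1800.0 and 1649.7 to 2659, 2267 and 2542, and PFDN1 rose (0.51 ± 0.077 and 0.69 ± 0.15). In mitochondria the chaperonin pair was lower, HSPD1 going from 3638, 3742 and 3566 to 1568, 1478 and 1585 (−1.24 ± 0.066, adjusted p = 2.47e-17) and HSPE1 from 1315, 1409.6 and 1709 to 939, 905 and 987 (−0.64 ± 0.082, adjusted p = 6.04e-08). HSPA9, the mitochondrial HSP70, changed by −0.57 ± 0.094, and its exchange factor GRPEL1 by 0.30 ± 0.084. Of 14 mitochondrial chaperones and proteases 6 fell (42.9%) and 2 rose (14.3%), with a median of −0.21, and 3 fell without siNT heat shock library 1.

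Most genes of folding in the ER were lower, several of them near their basal level. HSPA5, the HSP70 of the ER (chromosome 9, 125234853 to 125241343), had 5562, 6044 and 6022 normalized counts in siNT cells after heat shock and 2281, 2181 and 2237 in siJMJD6 cells, against 2185, 2298 and 2076 at baseline. The change was −1.39 ± 0.067 (adjusted p = 1.42e-18). HERPUD1, which acts in ER-associated degradation, went from 866, 799 and 824 to 255, 269 and 232, with 187, 170.2 and 197 at baseline (−1.72 ± 0.097, adjusted p = 1.37e-16). SDF2L1, a partner of HSPA5, went from 888, 976 and 856 to 425, 415 and 397 (−1.13 ± 0.085, adjusted p = 3.16e-13), and MANF, a secreted ER factor, from 1029, 1028 and 904 to 452, 508 and 487 (−1.03 ± 0.090, adjusted p = 1.13e-11). These 4 genes were named for their small adjusted p, and in all 4 the groups were far apart. The basal values of SDF2L1 (471, 502 and 455) and MANF (515, 430.3 and 524) lay near those of siJMJD6 cells. CALR, a lectin chaperone, fell by a smaller amount (−0.73 ± 0.068, adjusted p = 4.98e-11). Of 23 tested genes of ER folding and the unfolded protein response 15 fell (65.2%) and 0 rose, against 25.1% and 22.0% of all tested genes. Of the falls 6 were at least 2-fold, and the median was −0.62. In siNT cells heat shock had raised 14 of these 23, where it changed 4.20% of all tested genes in either direction. That comparison shares its heat-shocked libraries with the knockdown comparison, so the levels are given side by side only.

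The ER stress element, CCAAT then 9 bases then CCACG on either strand, was searched after these values had been seen. It was found in the windows of 7 of 22 genes of the ER list and of 10 of all 7874 tested genes (0.127%). Of the 7 genes HSPA5, CALR, HSP90B1, XBP1 and PDIA6 fell, and CRELD2 and CANX were not called. Of the 15 ER genes without the element 10 fell and 0 rose, a share of falls close to that with it. The element contains a CCAAT box, which was found for 20 of the 22 ER genes, against 44.1% of all tested genes with a window. The window of HSPA5 lies on the minus strand at chr9:125241294-125241593, with the element in capitals.
HSPA5: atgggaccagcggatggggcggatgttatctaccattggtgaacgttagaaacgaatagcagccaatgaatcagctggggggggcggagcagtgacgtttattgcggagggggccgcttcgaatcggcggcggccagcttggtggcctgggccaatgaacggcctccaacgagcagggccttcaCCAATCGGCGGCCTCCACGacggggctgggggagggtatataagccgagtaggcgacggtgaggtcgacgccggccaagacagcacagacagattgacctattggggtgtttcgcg

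Targets of ATF4 and CHOP had the highest share of falls among the plotted lists of at least 10 tested genes. Of 33 tested members 24 fell and 3 rose, 13 of the falls were at least 2-fold, and the median was −0.75, against 25.1% lower among all genes. ATF4 itself went from 560.3, 567 and 586 to 289, 251 and 241 (−1.14 ± 0.092, adjusted p = 1.79e-12), and CHOP, encoded by DDIT3, from 324, 285 and 288 to 149, 128 and 173 (adjusted p = 2.32e-08). CHAC1, which breaks down glutathione, fell most in the list, from 97.8, 103 and 74.2 to 18.1, 14 and 12.7 (−2.54 ± 0.21, adjusted p = 1.91e-12). DDIT4, an inhibitor of mTOR, had 331, 459 and 398 in siNT and 102, 102 and 94.03 in siJMJD6 cells (−1.97 ± 0.11, adjusted p = 8.66e-17). SLC7A11, the cystine importer, went from 305, 368 and 328 to 93.2, 91.6 and 85.2 (−1.88 ± 0.11, adjusted p = 2.1e-16) and TRIB3, a pseudokinase that binds ATF4, from 227, 305 and 232 to 66.7, 60.8 and 81.3 (−1.85 ± 0.14, adjusted p = 2.08e-13). No siJMJD6 library reached the lowest siNT library in any of these 6 genes. Groups did not overlap in 54.7% of all tested genes, and DDIT4, SLC7A11 and TRIB3 were named for their small adjusted p.

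Genes of amino acid synthesis and uptake were among these falls. CTH, of cysteine synthesis (−1.97 ± 0.20), the amino acid transporter SLC38A2 (−1.45 ± 0.11), MTHFD2, of mitochondrial folate metabolism (−1.41 ± 0.095), PSAT1 (−1.36 ± 0.12) and PHGDH (−0.61 ± 0.12) of serine synthesis, and ASNS, asparagine synthetase (−1.08 ± 0.12), all fell. The 3 members that rose were ATF5 (0.72 ± 0.13, adjusted p = 1.69e-05), PPP1R15A, which directs the phosphatase that ends the response (0.60 ± 0.15, adjusted p = 0.00138), and ATF3 (0.79 ± 0.23, adjusted p = 0.00533). ATF3 was not called without library 2 of siNT heat shock (0.58, adjusted p = 0.0621) or of siJMJD6 (0.58, adjusted p = 0.0705). CEBPB (−0.097 ± 0.12), STC2 (−0.098 ± 0.083) and SLC7A1 (0.034 ± 0.17) were not called. Of 16 cytosolic aminoacyl-tRNA synthetases, which charge tRNAs and include known ATF4 targets, 11 fell (68.8%) and 0 rose (median −0.43). There was 1 rise without siNT heat shock library 3 or siJMJD6 library 2. CARS went from 449, 479.6 and 397 to 174, 196 and 190.1 (−1.24 ± 0.11, adjusted p = 7.71e-12), LARS from 259.9, 284 and 303 to 147, 124 and 169 (−0.95 ± 0.11) and YARS from 551, 486 and 505 to 289.6, 311 and 328 (−0.73 ± 0.093). The upstream kinases and eIF2 factors moved less. Of 16 tested, 5 fell (31.2%) and 1 rose (6.25%), and 3 fell without siNT heat shock library 1. EIF2S2, the beta subunit of eIF2, was among the falls (−0.60 ± 0.070, adjusted p = 8.91e-09).

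The ATF4 site was searched as TGATGNAA on both strands. It was in the windows of 8 of 26 ATF4 and CHOP targets (30.8%) and 5 of 12 aminoacyl-tRNA synthetases (41.7%), against 2.63% of all tested genes. All 5 synthetases with the site fell (AARS, CARS, IARS, NARS and TARS), as did 3 of 7 without it. Of the 8 targets with it 5 fell and 1 rose, and of the 18 without it 14 fell and 2 rose. The window of CHAC1, which fell, lies on the plus strand at chr15:40953221-40953520 and that of ATF3, which rose, on the plus strand at chr1:212565157-212565456. Capitals mark the site, which CHAC1 holds in the reverse direction.
CHAC1: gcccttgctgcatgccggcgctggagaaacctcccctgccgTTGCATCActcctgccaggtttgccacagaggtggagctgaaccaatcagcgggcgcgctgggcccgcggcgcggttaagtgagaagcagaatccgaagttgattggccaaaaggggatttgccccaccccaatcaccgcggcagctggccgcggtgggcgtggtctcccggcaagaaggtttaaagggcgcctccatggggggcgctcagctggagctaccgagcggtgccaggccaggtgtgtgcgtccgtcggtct
ATF3: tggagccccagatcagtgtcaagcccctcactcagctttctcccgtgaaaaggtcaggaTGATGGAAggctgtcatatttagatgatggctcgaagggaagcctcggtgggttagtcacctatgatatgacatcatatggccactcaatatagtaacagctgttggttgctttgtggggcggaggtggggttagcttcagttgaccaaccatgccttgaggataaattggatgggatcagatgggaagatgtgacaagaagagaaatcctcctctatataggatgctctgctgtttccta

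Protein turnover and other stress genes were next. Of 37 proteasome subunits 12 fell (32.4%) and 5 rose (13.5%), against 25.1% and 22.0% of all tested genes (median −0.19). The falls were led by PSMD8 of the lid, which dropped from 809, 804 and 822 to 259, 249.9 and 241 (−1.70 ± 0.084, adjusted p = 3.33e-18), and the ATPase PSMC5 (−1.01 ± 0.099, adjusted p = 1.75e-10). Of 28 ubiquitin and autophagy genes 6 fell and 6 rose, 21.4% each and near the shares of all genes. ZFAND2A, a heat-induced partner of the proteasome, went from 149.9, 185 and 168 to 72.95, 61.7 and 86.3 (−1.18 ± 0.16, adjusted p = 1.8e-07) and LAMP2, a lysosomal membrane protein, from 101, 105 and 118 to 229, 191 and 237 (1.01 ± 0.12, adjusted p = 2.69e-08). Of 19 targets of the antioxidant factor NRF2, 10 fell (52.6%) and 4 rose (21.1%). TXNRD1 fell (−1.14 ± 0.10, adjusted p = 3.08e-11), as did NQO1 (−0.82 ± 0.12, adjusted p = 5.49e-07), and FTL, the ferritin light chain, rose from 754, 661 and 616 to 1636, 1570.0 and 1706 (1.28 ± 0.090, adjusted p = 6.49e-14). All 3 metallothioneins tested were lower, MT2A from 1492, 1462 and 1671 to 914, 837 and 972 (−0.76 ± 0.083, adjusted p = 1.9e-09), MT1X from 70.6, 76.3 and 82.9 to 23.4, 30.9 and 26.4 (−1.48 ± 0.18, adjusted p = 2.26e-08) and MT1E from 45.3, 60.6 and 55.98 to 19.2, 10.8 and 34.3 (−1.42 ± 0.24, adjusted p = 1.06e-05).

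Most genes of G2 and mitosis fell. Of 43 tested G2 and mitosis genes 30 fell (69.8%) and 1 rose (2.33%), 12 of the falls at least 2-fold, with a median of −0.68. PRC1, which bundles the microtubules of the spindle midzone, had 118, 113 and 108 normalized counts in siNT and 7.59, 22.5 and 21.5 in siJMJD6 cells (−2.79 ± 0.23, adjusted p = 4.08e-12), and PRR11 went from 489.9, 456 and 434 to 77.3, 74.6 and 75.4 (−2.58 ± 0.11, adjusted p = 9.32e-20). The kinases AURKA, from 244, 267 and 330.4 to 104, 95.8 and 97.97 (−1.48 ± 0.12, adjusted p = 1.34e-12), and PLK1, from 101, 115 and 153 to 38.2, 45.8 and 39.2 (−1.54 ± 0.17, adjusted p = 1.6e-09), fell along with cyclin B1 (CCNB1), from 159, 153 and 127 to 59.3, 39.5 and 50.9 (−1.54 ± 0.15, adjusted p = 2.68e-10). FOXM1, a transcription factor of these genes, changed by −1.48 ± 0.19. The member that rose was CDC25B, a phosphatase that activates CDK1, from 262, 249 and 237 to 680.2, 645 and 729 (1.45 ± 0.092, adjusted p = 2.91e-15). TOP2A, with 605, 673 and 618 in siNT and 606, 662 and 616 in siJMJD6 cells, CCNB2 (−0.16 ± 0.20) and NUSAP1 (0.29 ± 0.16) were not called. Without siJMJD6 library 1, ANLN lost its call (−0.34, adjusted p = 0.164), without siNT heat shock library 2 MKI67 did (−0.50, adjusted p = 0.0654), and without siJMJD6 library 3 CENPF did (−0.31, adjusted p = 0.0648).

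Of 42 DNA replication and S phase genes 16 fell (38.1%) and 10 rose (23.8%), against 25.1% and 22.0% of all tested genes (median −0.17). TYMS, thymidylate synthase, went from 309, 324 and 322 to 87.9, 104 and 116 (−1.63 ± 0.11, adjusted p = 4.86e-14), the polymerase subunit POLD2 from 261, 306 and 252 to 107, 96.9 and 111 (−1.37 ± 0.11, adjusted p = 2.1e-12) and RRM1, of nucleotide reduction, from 226, 246 and 228 to 70.97, 106 and 91.1 (−1.39 ± 0.14, adjusted p = 2.58e-10). With a minimum of 50 normalized counts 10 fell. Among 17 growth arrest and p53 target genes 4 fell, or 2 with that minimum, and 4 rose. In the main setting that is 23.5% each, near the shares of all genes. CDKN1A, the p21 inhibitor of cyclin-dependent kinases, rose from 39.5, 62.7 and 75.2 to 120.3, 87.1 and 136 (0.97 ± 0.21, adjusted p = 0.000214), CDKN2D, another such inhibitor, rose (1.65 ± 0.24, adjusted p = 8.12e-07) and CDKN2A fell (−0.80 ± 0.10, adjusted p = 8.08e-08).

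Promoters of mitotic genes often hold a CCAAT box, bound by NF-Y, and a cell cycle element, searched here as TTTGAA, both on either strand. Of 36 G2 and mitosis genes with a window, 32 held CCAAT and 27 held TTTGAA, against 44.1% and 13.5% of all tested genes. Of the 27 with TTTGAA 17 fell and 0 rose, and of the 9 without it 7 fell and 1 rose. Over all genes with a window TTTGAA was found for 15.9% of genes called lower and 12.4% of genes called higher. The window of PRC1, on the minus strand at chr15:90994486-90994785, is shown with both in capitals because PRC1 fell most in this list.
PRC1: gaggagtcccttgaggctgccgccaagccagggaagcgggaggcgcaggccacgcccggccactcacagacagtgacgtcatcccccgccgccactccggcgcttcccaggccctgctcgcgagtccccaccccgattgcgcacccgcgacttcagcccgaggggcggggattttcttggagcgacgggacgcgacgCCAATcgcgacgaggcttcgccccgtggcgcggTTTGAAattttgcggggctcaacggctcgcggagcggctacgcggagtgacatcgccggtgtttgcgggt

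JMJD6 is known to interact with splicing factors. Of 37 SR, hnRNP and other splicing regulators 15 fell (40.5%) and 4 rose (10.8%), against 25.1% and 22.0% of all tested genes, with a median of −0.15. After either rescaling 7 rose. SRSF9 dropped from 674, 599 and 505 to 152, 169 and 159 (−1.87 ± 0.11, adjusted p = 6.08e-16), HNRNPH3 from 956, 1045 and 1206 to 413, 456 and 393 (−1.34 ± 0.090, adjusted p = 1.81e-14) and HNRNPA1 from 784, 779.7 and 744 to 364, 402 and 374 (−1.02 ± 0.084, adjusted p = 2.71e-12). HNRNPA1 has many processed copies in the genome, so its count is uncertain. Of 33 core spliceosome and JMJD6-bound factors 11 fell (33.3%) and 6 rose (18.2%), nearer to the shares of all genes. SNRPA of the U1 particle (−1.23 ± 0.10, adjusted p = 2.67e-12) and the U5 GTPase EFTUD2 (−1.21 ± 0.11, adjusted p = 1.29e-11) fell, and PRPF4 (0.94 ± 0.13, adjusted p = 3.48e-07) and PRPF19 (0.53 ± 0.078, adjusted p = 8.11e-07) rose.

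Among factors of pause release, a step at which JMJD6 is known to act, HEXIM1 rose most. HEXIM1 (chromosome 17, 45148475 to 45152099), which holds the elongation kinase P-TEFb inactive with the 7SK RNA, had 79.1, 101 and 93.6 normalized counts in siNT and 401, 569 and 531 in siJMJD6 cells, against 74.2, 67.7 and 103 at baseline. Every siJMJD6 value was more than 3 times every siNT value (2.43 ± 0.15, adjusted p = 6.4e-16). Its relative HEXIM2, named after its values were seen, was at very low counts and went from 0.0, 4.47 and 3.99 to 10.6, 13.8 and 23.6 (2.42 ± 0.56, adjusted p = 0.000554). BRD2, which binds acetylated histones, rose from 535, 537 and 539 to 935, 747 and 776 (0.60 ± 0.088, adjusted p = 8.26e-07). Subunits of Mediator and of the pausing factor NELF fell, MED14 from 66.7, 67.4 and 79.9 to 19.2, 28.8 and 30.3 (−1.44 ± 0.19, adjusted p = 1.09e-07) and NELFCD from 141, 157 and 113 to 72.98, 59.6 and 64.7 (−1.04 ± 0.15, adjusted p = 3.63e-07). In all 10 of 30 fell and 6 rose, or 33.3% and 20%. Of 24 JmjC oxygenases 7 fell (29.2%), JMJD6 included, and 4 rose (16.7%), near the shares of all genes. RIOX1, listed as C14orf169, rose from 125, 127 and 124 to 269, 242 and 257 (1.02 ± 0.12, adjusted p = 4.14e-09), and its relative RIOX2, listed as MINA, fell (−1.31 ± 0.21, adjusted p = 5.22e-06). The falls numbered 4 without siNT heat shock library 1 or 2 and 3 with a minimum of 50 normalized counts, and the rises 2 without siNT heat shock library 3.

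RHOA, the GTPase that drives actin stress fibres, was one of the deepest falls. RHOA (chromosome 3, 49359145 to 49411976) had 518, 559.5 and 524 normalized counts in siNT and 75.2, 58.7 and 66.6 in siJMJD6 cells (−2.99 ± 0.11, adjusted p = 3.8e-22). Basal cells had 548, 536 and 614, and the change with heat shock was −0.082 ± 0.11, not called. The formin DIAPH2 went from 97.7, 116 and 80.6 to 17.1, 12.95 and 15.6 (−2.60 ± 0.21, adjusted p = 9.73e-13), RAC3 from 132, 94.9 and 80.4 to 40.2, 21.4 and 24.4 (−1.82 ± 0.20, adjusted p = 3.6e-09) and ARHGEF2, an exchange factor for RHOA, from 47.5, 35.5 and 55.5 to 10.7, 11.8 and 9.75 (−1.98 ± 0.26, adjusted p = 6.49e-08). CDC42 rose from 196, 194 and 172 to 281, 266 and 255 (0.51 ± 0.11, adjusted p = 0.000185), as did its effectors CDC42EP3 (0.74 ± 0.13) and PAK2 (0.65 ± 0.15) and the kinase ROCK2 (0.49 ± 0.14). ROCK1 (−0.30 ± 0.16) and ARHGDIA (−0.020 ± 0.091) were not called, though ROCK1 was called lower without siNT heat shock library 3 (−0.46, adjusted p = 0.0313).

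Actin, tubulin and serum response factor (SRF) target genes were the cytoskeletal list with most rises. Of 36 tested 17 rose and 7 fell, against 22.0% higher among all genes, with a median of 0.23. TUBA4A went from 636, 674 and 813 to 2531, 2491 and 2644 (1.86 ± 0.081, adjusted p = 1.29e-19), TUBA1A from 355, 399.7 and 558 to 1438, 1665 and 1717 (1.90 ± 0.11, adjusted p = 6.07e-16) and TUBB3 from 123, 137 and 115 to 375, 356 and 368 (1.55 ± 0.12, adjusted p = 1.11e-12). The actin binders FLNA, from 680.0, 780.4 and 727 to 1572, 1572 and 1623 (1.12 ± 0.078, adjusted p = 3.68e-14), and TPM4, from 209.5, 239.5 and 193 to 595, 564 and 586 (1.44 ± 0.10, adjusted p = 6.78e-14), rose too. TUBA1B, named after its values were seen, fell from 6977, 8477 and 11002 to 3845, 4312 and 4319 (−1.06 ± 0.094, adjusted p = 1.56e-11), and alpha-tubulin genes share near-identical coding sequence.

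ITPK1, a kinase that makes higher inositol phosphates, stood second to JMJD6 in depth of fall. ITPK1 (chromosome 14, 92936914 to 93115925) had 120.0, 99.8 and 102 normalized counts in siNT and 9.704, 9.78 and 4.83 in siJMJD6 cells (−3.62 ± 0.22, adjusted p = 8.36e-16), with 94.5, 127 and 97.1 at baseline. Other enzymes of these lipids and phosphates that fell were PIP4K2C, from 134, 143 and 159 to 44.5, 40.6 and 37.2 (−1.81 ± 0.15, adjusted p = 1.7e-12), the PI3-kinase subunit PIK3CB, from 30, 37.3 and 47.2 to 7.53, 2.29 and 4.85 (−2.82 ± 0.32, adjusted p = 5.17e-09), and IMPA1, inositol monophosphatase (−1.04 ± 0.18, adjusted p = 8.88e-06). The list as a whole, with 8 of 32 lower and 5 higher, lay near the share of all genes, and 3 rose without siNT heat shock library 1 or 2 or siJMJD6 library 2, and 2 without siJMJD6 library 1.

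**Figure D3:**
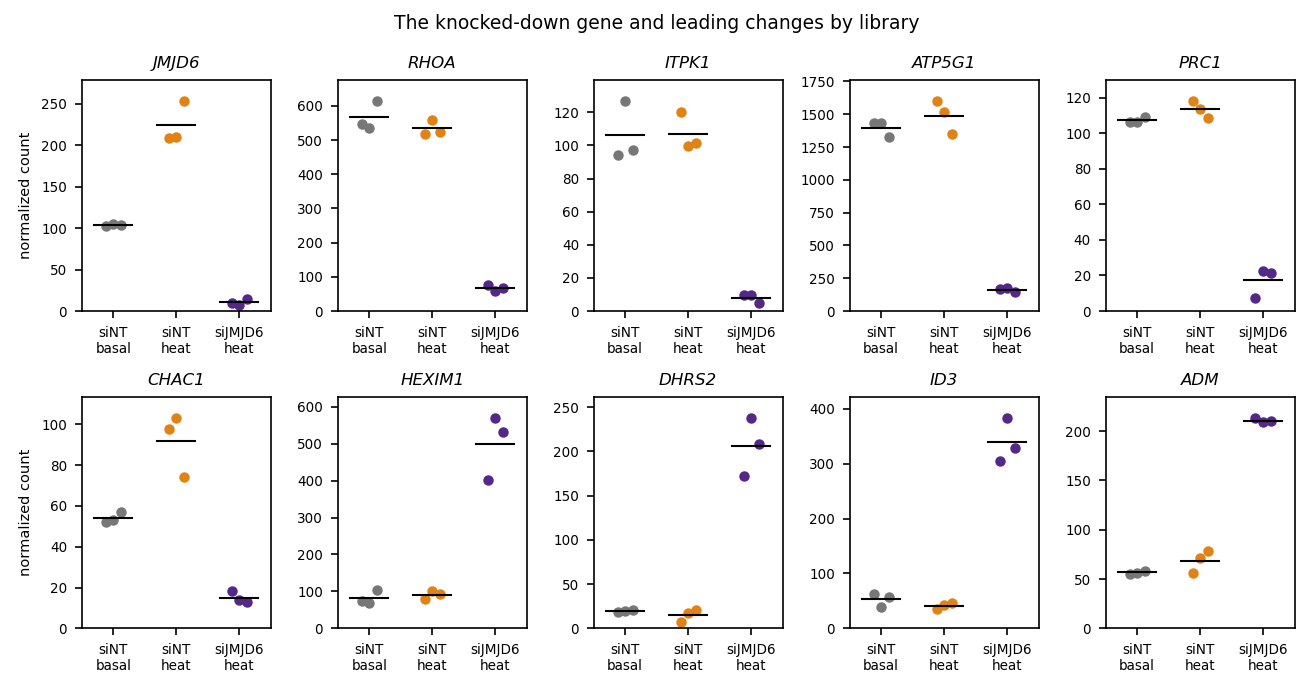
Normalized counts of JMJD6 and 9 other genes with large changes in each library (points; lines are group means) for siNT basal, siNT heat shock and siJMJD6 heat shock cells, each panel with its own axis from 0. JMJD6, RHOA, ITPK1, ATP5G1, PRC1 and CHAC1 are lower in all 3 siJMJD6 libraries than in any siNT library, and HEXIM1, DHRS2, ID3 and ADM are higher.

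Beside the genes named so far, the 10 deepest falls at a mean of at least 50 held ATP5G1, RNU5F-1, LYPLA1 and EML4. ATP5G1 (ATP5MC1, chromosome 17, 48892787 to 48895871), 1 of the genes for the ring subunit c of ATP synthase, had 1601, 1517 and 1349 normalized counts in siNT and 171, 173 and 147 in siJMJD6 cells (−3.18 ± 0.087, adjusted p = 1.84e-25). Its sister genes, named after their values were seen, moved far less, ATP5G2 by −0.35 ± 0.081 and ATP5G3 by −0.30 ± 0.080. RNU5F-1, an annotated copy of the U5 small nuclear RNA, went from 191, 152 and 109.6 to 13.9, 17.2 and 17.6 (−3.11 ± 0.19, adjusted p = 6.08e-16), with a count that near-identical copies make uncertain. LYPLA1, which removes palmitate from proteins, went from 170.2, 152 and 141 to 23.4, 23.6 and 21.5 (−2.70 ± 0.15, adjusted p = 5.97e-17) and EML4, which binds microtubules, from 190.4, 209 and 281 to 27.7, 36.4 and 38.2 (−2.69 ± 0.15, adjusted p = 5.97e-17).

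At the same minimum mean of 50, the 10 largest rises were led by DHRS2, a mitochondrial and nuclear reductase, from 7.601, 16.8 and 21.2 to 172, 237 and 208 (3.77 ± 0.25, adjusted p = 1.07e-14). SNAR-G1 and SNAR-F, small noncoding RNA genes of a multicopy family whose reads can be shared, went from 24.99, 15.2 and 21.9 to 264, 214 and 211 (3.43 ± 0.23, adjusted p = 1.99e-14) and from 41.4, 38.3 and 15.96 to 275, 283 and 264 (3.17 ± 0.24, adjusted p = 3.2e-13). PCYOX1L rose by 3.11 ± 0.21, the histone gene HIST1H2BD by 2.97 ± 0.24, AHNAK2 by 2.93 ± 0.12, NPTXR, a neuronal pentraxin receptor, by 2.90 ± 0.21, the kinase PSKH1 by 2.82 ± 0.27 and the antisense RNA HOXA11-AS by 2.73 ± 0.21. The remaining one of the 10 was ID3. Groups that do not overlap were a condition for choosing these 10 genes.

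Genes that answer TGF-beta and BMP included that rise. ID3, an inhibitor of helix-loop-helix transcription factors, went from 34.6, 43.1 and 47.03 to 305, 383 and 329 (3.002 ± 0.17, adjusted p = 8.66e-17), ID1 from 126, 141 and 126 to 433, 450.2 and 424 (1.72 ± 0.11, adjusted p = 2.26e-15) and ID2 from 22.1, 33.7 and 26.5 to 122, 139.9 and 113 (2.16 ± 0.20, adjusted p = 4.21e-11). FST, follistatin, fell from 87.1, 77.9 and 110.3 to 36.02, 18.3 and 29.4 (−1.72 ± 0.21, adjusted p = 2.41e-08), and TBX3, a developmental repressor, had 443, 461 and 347 in siNT and 205, 215 and 197 in siJMJD6 cells, against 48.5, 40.3 and 47.02 at baseline (−1.01 ± 0.13, adjusted p = 3.62e-08). Over the list 9 of 25 rose (36%) and 5 fell (20%), with a median of 0.21. With a minimum of 50 normalized counts 3 rose and 2 fell. Interferon response genes showed 8 of 19 higher (42.1%) and 1 lower (5.26%), with a median of 0.26. ISG15, a ubiquitin-like modifier, went from 345, 347 and 311 to 657, 596 and 646 (0.92 ± 0.095, adjusted p = 6.06e-10) and IFI6 from 16.3, 13.7 and 17.8 to 73.7, 55.1 and 87.4 (2.09 ± 0.25, adjusted p = 1.53e-08), while STAT2, which carries the interferon signal, fell from 38.7, 53.9 and 42.4 to 21.2, 14.97 and 18.6 (−1.26 ± 0.27, adjusted p = 0.000254). Most of these genes were low, and 3 rose and 0 fell with the minimum of 50.

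Immediate-early genes, switched on by growth signals and stress, fell more often than they rose, 12 (46.2%) against 5 (19.2%) of 26 (median −0.18). PHLDA1 went from 1241, 1387 and 1481 to 658, 689.6 and 721 (−0.99 ± 0.078, adjusted p = 1.1e-12), IER3 from 2611, 2408 and 2616 to 1386, 1229 and 1418 (−0.92 ± 0.074, adjusted p = 1.7e-12), KLF6 from 450.4, 382 and 359 to 155, 167 and 158 (−1.30 ± 0.12, adjusted p = 2.04e-11) and the ERK phosphatase DUSP5 from 245, 229 and 237 to 109, 103 and 98.96 (−1.19 ± 0.11, adjusted p = 9.17e-11). IER2 moved the other way, from 694, 773 and 826 to 1220.2, 1202 and 1292 (0.70 ± 0.081, adjusted p = 7.86e-09). Regulators of cell death changed in both directions, 8 of 28 lower (28.6%) and 7 higher (25%), near the shares of all genes. PMAIP1, or NOXA, which promotes death, fell from 241, 238 and 212 to 82.6, 79.9 and 70.5 (−1.56 ± 0.12, adjusted p = 5.73e-13), and so did DIABLO, from 222, 272 and 231 to 102, 95.8 and 91.1 (−1.32 ± 0.12, adjusted p = 2.74e-11). BCL2L1, which blocks death, rose from 56.9, 64.9 and 62.8 to 187, 165 and 183 (1.52 ± 0.15, adjusted p = 1.32e-10), and BIRC5, survivin, which also acts in mitosis, fell from 493, 524 and 513 to 268, 241 and 296 (−0.93 ± 0.093, adjusted p = 3.63e-10). Among 13 NF-kB and acute phase genes 4 fell (30.8%) and 2 rose (15.4%). S100A9 rose from 20.2, 23.3 and 24.3 to 125, 89.1 and 96.1 (2.14 ± 0.21, adjusted p = 1.7e-10). The rises numbered 1 without siNT heat shock library 3, and the falls 2 without siJMJD6 library 2 and 0 with a minimum of 50 normalized counts.

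In metabolism, glycolysis and hypoxia genes had 13 of 33 lower (39.4%) and 9 higher (27.3%), against 25.1% and 22.0% of all tested genes. ENO1, enolase, went from 4454, 4409 and 4085 to 2437, 2363 and 2465 (−0.83 ± 0.066, adjusted p = 9.43e-13), LDHA, lactate dehydrogenase, from 796, 740.5 and 872 to 422, 424 and 478 (−0.86 ± 0.092, adjusted p = 1.33e-09), and HIF1A, the hypoxia factor, from 456, 400.1 and 364 to 185, 189 and 171 (−1.15 ± 0.10, adjusted p = 1.51e-11). ADM, the vasoactive peptide adrenomedullin and a hypoxia target, rose from 55.9, 71.3 and 78.5 to 213, 209 and 209.9 (1.62 ± 0.15, adjusted p = 2.93e-11). Of 22 genes of cholesterol synthesis and uptake 7 fell (31.8%) and 4 rose (18.2%), near the shares of all genes. CYP51A1, of sterol synthesis (−1.47 ± 0.12, adjusted p = 5.69e-12), and INSIG1, the sterol sensor of the ER (−1.14 ± 0.12, adjusted p = 1.19e-09), fell, and HMGCS1, of the mevalonate pathway, rose (0.64 ± 0.096, adjusted p = 1.18e-06). Of 55 subunits of the respiratory chain and ATP synthase 22 fell (40%) and 12 rose (21.8%), with a median of −0.14. Apart from ATP5G1, 1 fall was of at least 2-fold, UQCRC2 of complex III (−1.33 ± 0.10, adjusted p = 4.67e-13). The rises numbered 6 without siNT heat shock library 1.

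Ribosomal protein genes moved little in size. Among 73 cytosolic ribosomal proteins 17 rose (23.3%) and 15 fell (20.5%), near the shares of all genes. No change reached 2-fold, and the median was 0.037. RPL27A fell from 12248, 13210.4 and 12972 to 8072, 7787 and 8235 (−0.67 ± 0.066, adjusted p = 1.62e-10) and RPS3 from 5424, 5050.0 and 4629 to 3288, 3256 and 3225 (−0.63 ± 0.066, adjusted p = 1.01e-09), while RPS18 rose from 2414, 2710.1 and 2942 to 3683, 3737 and 3829.8 (0.48 ± 0.072, adjusted p = 1.05e-06). RPS24, the most abundant gene of every library, rose from 41393, 41875 and 44436 to 55923, 53776 and 56815 (0.38 ± 0.060, adjusted p = 2.55e-06). Under quantile normalization, where the top value is by construction the same in every library, its change was 0. Of 37 translation factors 19 fell (51.4%) and 7 rose (18.9%), with a median of −0.20. The falls were led by EIF4E, which binds the mRNA cap, from 104, 103 and 116 to 43.5, 38.4 and 36.2 (−1.43 ± 0.16, adjusted p = 2.06e-09), and EIF3L, from 450.2, 476 and 566 to 309.6, 265 and 276 (−0.81 ± 0.10, adjusted p = 3.01e-08). Of 43 ribosome biogenesis factors 13 fell (30.2%) and 9 rose (20.9%), near the shares of all genes. UTP18, which processes 18S rRNA, dropped from 103, 93.9 and 93.8 to 16.04, 27.8 and 18.6 (−2.20 ± 0.19, adjusted p = 7.19e-12), and nucleolar FBL (−0.72 ± 0.073, adjusted p = 4.81e-10) and NPM1 (−0.68 ± 0.071, adjusted p = 6.37e-10) fell. The rises numbered 5 without siJMJD6 library 3.

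**Figure D4:**
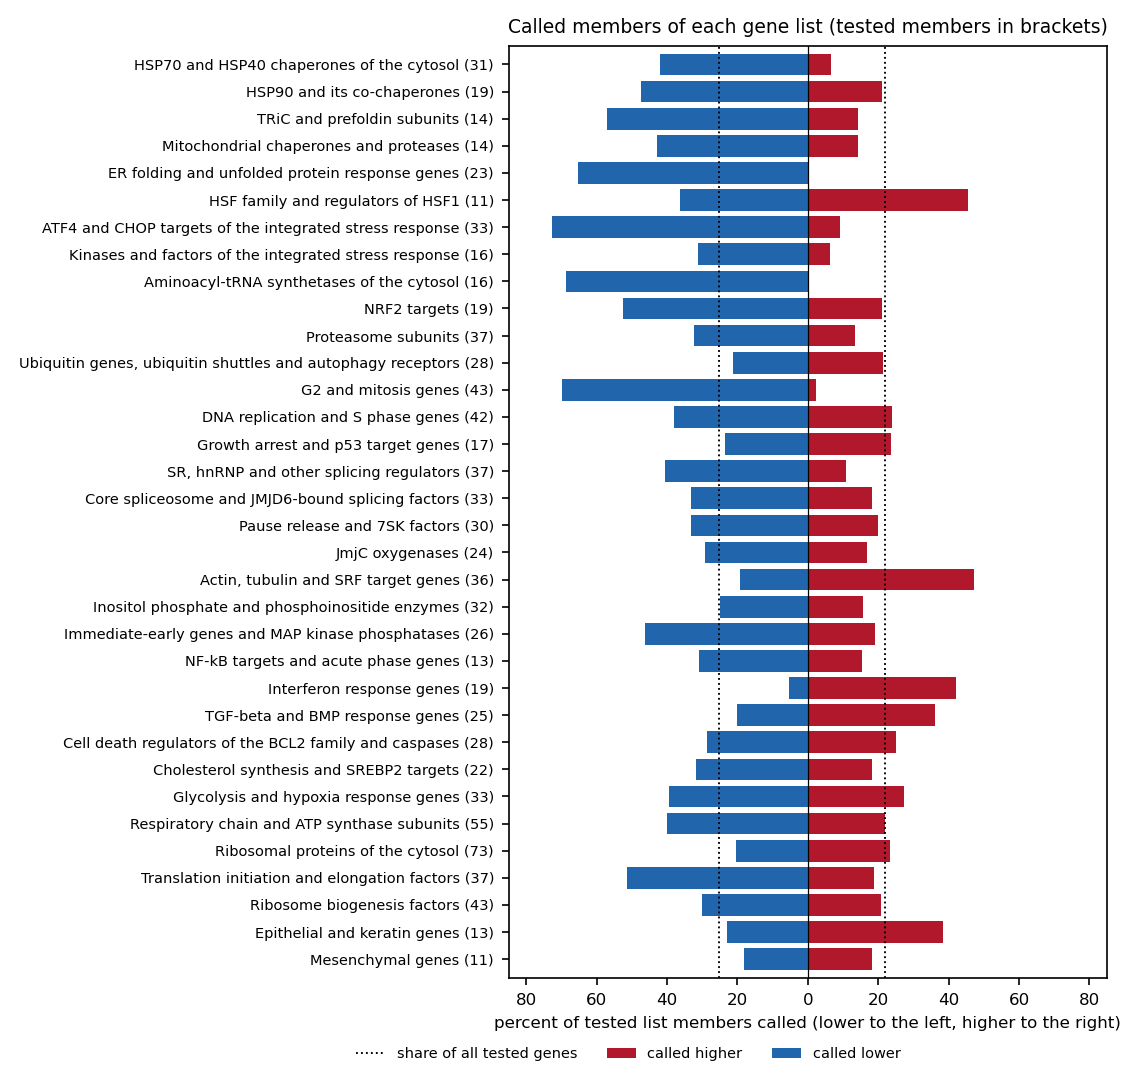
Percent of the tested members of gene lists of at least 10 tested genes that were called lower (blue, to the left) or higher (red, to the right) in siJMJD6 cells, with dotted lines at the shares among all tested genes, 25.1% and 22.0%. ATF4 and CHOP targets, G2 and mitosis genes, aminoacyl-tRNA synthetases and ER folding genes reach furthest to the left, and actin, tubulin and SRF targets furthest to the right.

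The libraries carried the markers of an epithelial cancer line. Over the 6 libraries EPCAM had 222.16 to 282.32 normalized counts, KRT18 1073.2 to 1358.6 and the mesenchymal marker VIM 450.13 to 560.03. Of 16 blood and immune genes 1, CD68, was tested and it was not called (0.36 ± 0.22, adjusted p = 0.182). Epithelial genes had 5 of 13 higher (38.5%) and 3 lower (23.1%). The count of rises was 2 or 3 when siNT basal library 1, siNT heat shock library 3 or siJMJD6 library 1 or 3 was left out. KRT8 rose from 35.6, 48.1 and 67.5 to 99.3, 137 and 143 (1.34 ± 0.21, adjusted p = 1.66e-06), and the splicing regulators of epithelial cells ESRP1 and ESRP2 fell (−2.10 ± 0.34 and −1.58 ± 0.35). Of 11 tested mesenchymal genes 2 fell and 2 rose, 18.2% each, against 25.1% and 22.0% of all tested genes. COL1A2, a collagen chain, fell from 220.3, 230.3 and 254 to 44.6, 63.96 and 73.5 (−1.96 ± 0.14, adjusted p = 4.05e-14), and FN1 fell less (−0.48 ± 0.15). COL1A1, another collagen chain (0.86 ± 0.22), and SNAI2 (0.87 ± 0.25) rose. There was 1 rise with a minimum of 50 normalized counts and 1 fall without siJMJD6 library 2.

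Knockdown of JMJD6 was also measured under MG132 in other libraries of the series, with 2 per group, so fewer genes could pass the test there. Whether the siRNA was the same in both experiments was not established here. Of the 9086 genes tested there, 1336 were called, or 14.7%. Among 8764 genes tested in both, 4227 were called after heat shock, 1291 under MG132 and 1078 in both. Of these 1078 genes 492 were higher in both and 573 lower in both, and 13 went in opposite directions. The 1065 genes called in the same direction make up 25.2% of the heat shock calls and 82.5% of the MG132 calls. Calls after heat shock were common in themselves, at 47.2% of the 9541 genes tested there in either direction, so many shared calls would be found in any case. Across the 8764 genes the changes correlated at r = 0.715 (Spearman 0.67), a description across genes, which are not independent. The medians over all genes were −0.025 after heat shock and −0.040 under MG132, and the median SE of a change was 0.38 in the MG132 table.

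The markers fell under both stresses. Under MG132 JMJD6 changed by −2.75 ± 0.32, ITPK1 by −3.28 ± 0.36, RHOA by −2.37 ± 0.23 and HSP90AA1 by −2.90 ± 0.23, each called. BAG3 (−0.93 after heat shock and −2.73 ± 0.44 under MG132), DNAJB1 (−0.48 and −2.18 ± 0.25) and CHAC1 (−2.54 and −4.40 ± 0.26) had larger values under MG132, and HSPA5 (−1.39 and −0.86 ± 0.28) was called after heat shock and not under MG132 (adjusted p = 0.0557). These differences between stresses were not tested, since the 2 tables were normalized separately. Over all 9086 genes tested under MG132, 14.7% were called in either direction, with a median of −0.040. Shares by direction are not given here. ATF4 and CHOP targets had 22 of 33 lower and 0 higher under MG132 (median −1.65). G2 and mitosis genes had 24 of 41 lower and 1 higher (median −1.15), and ER folding genes 2 of 22 lower and 0 higher (median 0.0073).

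**Figure D5:**
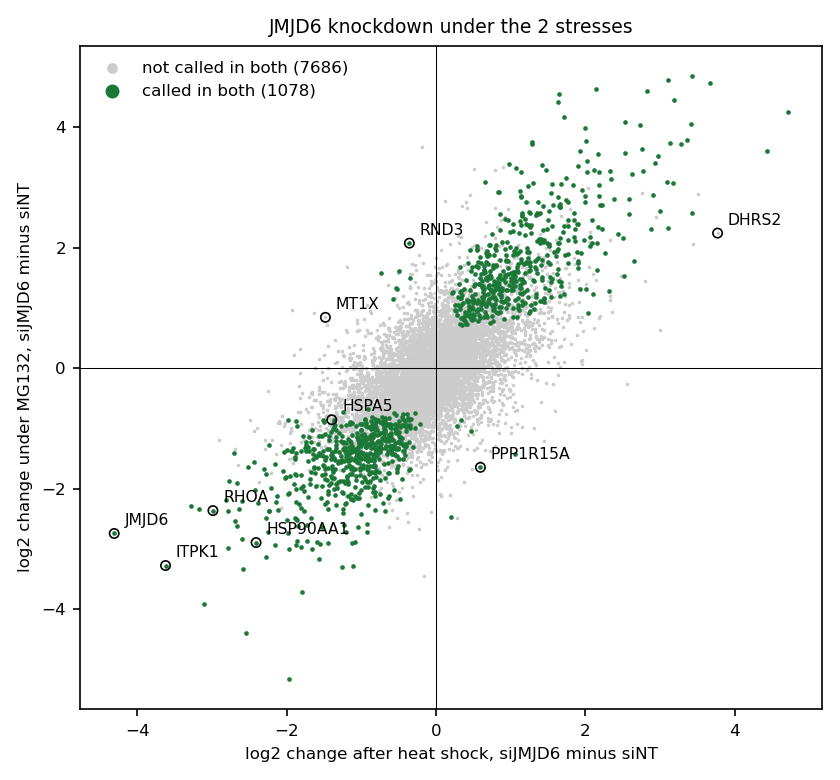
Change after JMJD6 knockdown under MG132 (vertical axis) against the change after heat shock (horizontal axis), both log2 of siJMJD6 minus siNT, for 8764 genes tested in both tables. Green points are the 1078 genes called in both; 1065 of them lie at the lower left or upper right, and RND3 and PPP1R15A are among the 13 that do not.

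The 13 genes called in opposite directions included HSPA1A, PPP1R15A and RND3. HSPA1A had 12973 and 7553 normalized counts in the siNT MG132 libraries and 1116 and 2860.3 in the siJMJD6 MG132 libraries (−2.47 ± 0.38, adjusted p = 0.00183), where its rise after heat shock was small and was lost without any of several single libraries, as given with the HSP70 group. PPP1R15A went from 70.5, 74.04 and 78.2 to 121, 107 and 109.8 after heat shock and from 241 and 274 to 71.3 and 92.9 under MG132 (−1.65 ± 0.28, adjusted p = 0.00311). RND3, which opposes RHOA, went from 249, 268 and 284 to 227, 206 and 193 (−0.36 ± 0.12, adjusted p = 0.0112) and from 5.19 and 24.5 to 44.7 and 60.4 (2.07 ± 0.55, adjusted p = 0.0258). Without siJMJD6 heat shock library 3 its fall was not called (−0.30, adjusted p = 0.0671).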

How the data were processed

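Tags from the 3' ends of transcripts (QuantSeq FWD) were prepared from 100 ng of RNA, per the labels' protocols. The submitters' processing notes name FastQC 0.11.2, STAR 2.6.0, HTSeq and the build hg38. The deposited signal values are counts per gene that the authors normalized between libraries, fractional and scaled separately in the heat shock and MG132 tables. For the scaling method, strand setting and annotation the sources used here give nothing. Since the values are not whole, no count model was used.

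Values were taken as log2(value + 1) and fitted with limma 3.58.1 (trended prior) in R 4.3.3 over the 9 libraries of the heat shock table, for genes at 10 or more in at least 3 of the 6 heat-shocked libraries. The MG132 table was fitted alone, for genes at 10 or more in 2 of the 4 libraries compared. P-values were Benjamini-Hochberg adjusted over all genes tested and called under 0.05. The procedure was tested on simulated data with few changed genes. That setting differs from this comparison, so it cannot tell how reliable the many calls here are. Genes named are JMJD6, HSF1, the markers, 2 neighbours of JMJD6, a panel of 8 chaperones, the 10 largest called rises and falls without overlap at a mean of 50 or more, the 5 most abundant called genes in each direction, the 5 called members of each list with the smallest adjusted p (or 2 uncalled), and members above 50 of some lists, among them ATF4 targets, chaperones and mitosis. Others are said to be named after their values were seen. The comparison, the 40 gene lists and the named genes were chosen with earlier results of these data known. Promoters and positions are RefSeq's (GRCh38.p14), matched for 9475 of 9541 genes by symbol, 538 of them by an older one, and 7874 had a promoter window. Alternatives covered the pseudocount, filter, scaling, libraries fitted, variance prior and each library left out. Results for 1 list and a few genes are not reported here.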

Additional observations from a re-analysis of the deposited data

Results flagged for a closer look

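For 9 of the genes named by list, every siJMJD6 library lay on one side of the siNT libraries after heat shock and on the other side under MG132. Separation by itself was common, with 54.7% of all tested genes not overlapping after heat shock. The share under MG132, with only 2 libraries per group, is not given here, so the count of 9 is no result by itself. The difference between the stresses was not tested for any of them, since the tables were normalized separately, and values are log2 changes, siJMJD6 minus siNT. Higher after heat shock and lower under MG132 were BRD2 (0.60 and −0.589), GADD45B (0.98 and −0.35) and PPP1R15A (0.60 and −1.65). Lower after heat shock and higher under MG132 were DUSP5 (−1.19 and 0.601), HSPB1 (−0.24 and 0.23), MT1X (−1.48 and 0.843), MT2A (−0.76 and 0.524), RND3 (−0.36 and 2.07) and SPG7 (−0.36 and 0.465). Of these, PPP1R15A and RND3 were called in both tables.
The heat shock call of SPG7 was lost under quantile normalization and without any of 5 single libraries, with adjusted p-values of 0.0566 to 0.0885.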

How the results depend on the processing

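The count of called genes lay between 3918 and 4813 in all settings tried except a minimum of 50 normalized counts, which tested 5377 genes and called 3068, of them 1398 higher. Leaving out 1 library gave 3918 to 4654. No gene called both in the main setting and in an alternative changed sign. Changes of at least 2-fold depended on low values. With a pseudocount of 10, 373 genes were at least 2-fold higher and 426 lower, and with the minimum of 50, 292 and 426. The share of calls that were higher was 44.5% to 49.8%. The median change over all genes was 0.0029 after rescaling by median of ratios and 0.0017 after quantiles, against −0.025 in the main setting. Replicate numbers gave no sign of pairing (deviations of same-numbered siNT and siJMJD6 libraries correlated at 0.099, 0.021 and 0.031), and a replicate block called 4532 genes. Over named genes and settings, 5414 values kept their call, 77 lost it, 14 gained it and 0 turned direction. For list counts, 1377 stayed within 1.5 times and 63 did not. Depth limits the low genes, where 1 read is worth 0.661 to 1.08 normalized counts.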

Other observations

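Long noncoding RNAs were called higher more often than protein-coding genes. Of 152 tested, 64 rose (42.1%) and 28 fell (18.4%), with a median change of 0.47, against 21.6% and 25.4% of 9262 protein-coding genes, with a median of −0.033. The difference between the classes was not tested.

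Genes that rose were shorter in genomic span. The median span was 23.7 kb for genes called higher, 32.2 kb for those called lower and 33.9 kb for those not called. Among the shortest genes, up to 17.3 kb, 27.1% rose and 24% fell, and among the longest, from 53.1 kb, 17.3% rose and 25.5% fell. Promoter GC content was close, at a median of 65.7% for genes called higher and 65.3% for those called lower. These are descriptions across genes of the same libraries, with no test.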
